A study of Mus musculus with 12 samples.

Results

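The genes described here encode 10 proteins of branched-chain amino acid breakdown: Bcat2, Bckdha, Bckdhb, Dbt, Bckdk, Ivd, Mccc1, Mccc2, Hibch and Hibadh. They were taken as every probe set annotated to a single gene with one of these symbols, which gave 17 of the 34945 single-gene probe sets on the array and 10 of 18193 genes. All 10 genes were bright enough to be among the 10916 genes tested. Expression was measured in total RNA from mouse hearts on Affymetrix arrays, with 3 arrays labelled as biological replicates in each of 4 groups. Wild-type mice had either a sham operation or aortic banding, which narrows the aorta so that the heart pumps against a raised pressure. Knockout mice, which lack the gene for the peptide apelin, Apln, had the same pair of operations, and no other allele or agent was named for any group. The sources used here do not give the age or strain of the mice, the design of the knockout allele, the time after surgery or the part of the heart sampled.

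Leucine, isoleucine and valine are broken down mainly outside the liver, and the heart is one of the organs that oxidize them. A transaminase in the mitochondrion first converts them to branched-chain keto acids, and the branched-chain ketoacid dehydrogenase complex then commits these to oxidation. That complex is switched off by a kinase and on by a phosphatase, after which separate enzyme chains carry the leucine, isoleucine and valine skeletons to acetyl-CoA, acetoacetate or succinyl-CoA. Lowered expression of these enzymes has been described in failing hearts.

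The label checks came first. Apln intensity was 333, 323 and 212 in wild-type sham, 205, 223 and 255 in wild-type banded, 63.7, 111 and 85.4 in knockout sham, and 271, 123 and 160.1 in knockout banded arrays 1 to 3. The array labelled knockout banded 1 therefore lay within the wild-type range, while the other knockout arrays lay below it; whether the Apln probe set covers the deleted part is not known. Myh7, the fetal myosin heavy chain that pressure overload induces in rodent ventricle, read 9203, 9324 and 9091 in knockout banded against 1128 to 1656 in knockout sham, so the array labelled knockout banded 1 was high for this banding marker. In wild type it read 5182, 1109 and 1361 in sham and 10045, 6718 and 1918 in banded arrays, so wild-type banded 3 lay within the sham range. Wild-type sham 1 alone set the top of that range and was far above every other sham array of either genotype. By this marker both arrays were thus unlike the rest of their groups. The summed intensity of 5 lung markers was 1637 on the array labelled knockout banded 1 and 142 to 215 on the other 11. Scgb1a1 (1094) and Scgb3a2 (409.6) made up most of it, while Sftpa1, Sftpb and Sftpc were no higher on it than on other arrays. The sum of 5 adipocyte markers was 589 on the array labelled knockout banded 1 and 518 on wild-type banded 1, against 50.1 to 177 elsewhere. Results that rest on the array labelled knockout banded 1 are therefore given with and without it. The heart label was borne out by 7 cardiomyocyte markers, which summed to between 56676 and 110676 on every array. Since RNA came from pieces of tissue, fewer cells of a type and less RNA per cell cannot be told apart.

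In knockout hearts Bckdhb, the E1 beta subunit of the dehydrogenase, and Mccc2, a subunit of the leucine-specific carboxylase, fell, and they were the 2 of 10 genes that passed limma's test at an adjusted p under 0.05. The background was 192 of 10916 genes called lower, or 1.76%. All 10 genes had a knockout banding difference below 0, with a median of -0.43 on the log2(intensity + 16) scale, against a median of -0.02 over all genes tested, of which 53.1% were below 0. In wild-type hearts 0 of 10 genes passed the same test and the background was 0%, with 534 genes and 0 of the 10 at an unadjusted p under 0.05. The wild-type median of the 10 genes was -0.03, with 7 below 0.

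**Figure D1:**
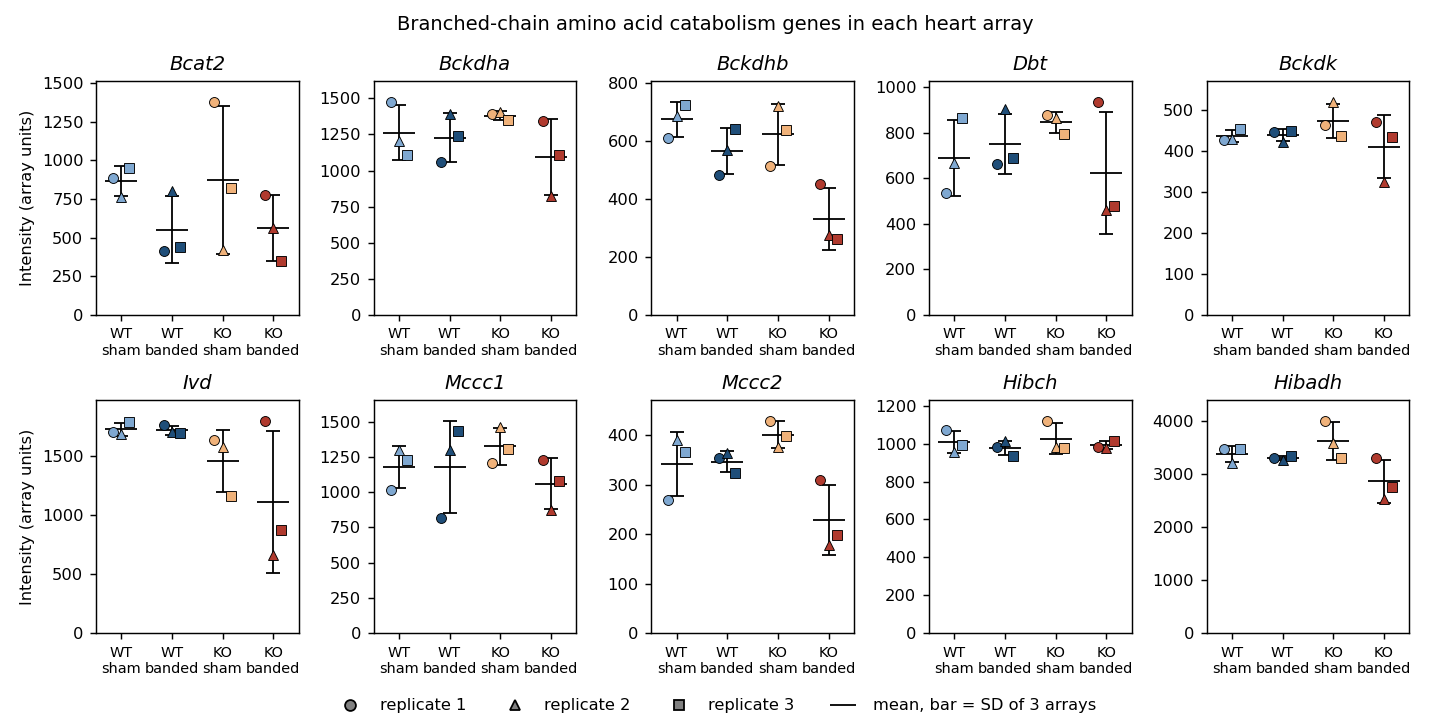
Intensity of each gene in each of the 12 arrays, in linear array units from 0, 1 panel a gene, by group (WT, wild type; KO, knockout); points are arrays, the horizontal line is the group mean and the bar the SD of 3 arrays. Bckdhb and Mccc2 show all 3 knockout banded arrays below all 3 knockout sham arrays, and for Ivd and Dbt the array labelled knockout banded 1 is the highest of the 12 while knockout banded 2 and 3 are the lowest. Each gene is drawn by its brightest probe set, and on the other Ivd probe set that array is not the highest.

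The stretches just upstream of the transcription start are shown for 4 of the genes. Bckdhb and Mccc2 were taken because they fell, Ivd because one of its probe sets fell, and Hibch because its brighter probe set moved least. The stretches come from RefSeq promoter windows of mouse build GRCm38.p6, 250 bases before the start, cut where the annotated gene begins. The cut left 224 bases for Bckdhb and 215 for Ivd. The stretches run 5′ to 3′ on the gene's strand, with each CCAAT or its reverse complement ATTGG in capitals. Their positions are chr9:83924887-83925110 on the plus strand for Bckdhb, chr13:100015640-100015889 on the minus strand for Mccc2, chr2:118861744-118861958 on the plus strand for Ivd and chr1:52844788-52845037 on the plus strand for Hibch.
Bckdhb: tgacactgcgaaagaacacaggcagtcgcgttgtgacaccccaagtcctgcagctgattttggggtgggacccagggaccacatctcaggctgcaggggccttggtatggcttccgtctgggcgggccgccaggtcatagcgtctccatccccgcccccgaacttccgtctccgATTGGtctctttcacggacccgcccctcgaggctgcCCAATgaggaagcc
Mccc2: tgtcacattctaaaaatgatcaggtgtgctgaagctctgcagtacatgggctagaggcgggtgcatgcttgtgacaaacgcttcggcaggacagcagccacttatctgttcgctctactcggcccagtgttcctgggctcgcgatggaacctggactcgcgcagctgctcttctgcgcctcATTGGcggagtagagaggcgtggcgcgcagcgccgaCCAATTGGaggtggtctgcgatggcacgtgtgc
Ivd: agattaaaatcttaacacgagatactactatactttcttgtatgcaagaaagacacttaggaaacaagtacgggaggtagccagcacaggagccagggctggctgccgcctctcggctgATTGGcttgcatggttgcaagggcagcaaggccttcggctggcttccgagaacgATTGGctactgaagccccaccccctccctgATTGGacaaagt
Hibch: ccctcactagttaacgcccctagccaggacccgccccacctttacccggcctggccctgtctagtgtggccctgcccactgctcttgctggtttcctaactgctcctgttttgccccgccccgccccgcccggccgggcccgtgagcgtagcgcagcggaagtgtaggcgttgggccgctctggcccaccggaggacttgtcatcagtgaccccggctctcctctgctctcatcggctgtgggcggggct
The letters CCAAT, read on both strands, occur 2 times in the Bckdhb window, 3 times each in those of Mccc2 and Ivd, and 0 times in that of Hibch. Those of Mccc2 include 2 that overlap each other. Among windows not shown, that of Bckdha also holds 0, that of Mccc1 2, and those of Bckdk and Hibadh 1 each. The table holds 11 windows for 9 of the genes, and 6 of the 11 hold CCAAT (1 each for Bckdhb, Bckdk, Hibadh, Ivd, Mccc1 and Mccc2), against 33.8% of all 32851 windows. The Hibch window holds GGGCGG, the GC box, 5 times and the Bckdhb window 3 times. It occurs in 4 of the 11 windows (1 each for Bckdhb, Hibadh, Hibch and Mccc1) against 32.7% of all windows. CACCC occurs in 7 of the 11 against 52.0%, the E-box CACGTG in 1 (Mccc2) against 6.0%, TATAAA in 1 (Bckdk) against 12.4%, and the nuclear receptor half-site AAGGTCA in 0 against 4.1%. The shares over the 11 and over all windows use the uncut 250 bases, including windows wholly or mostly inside an annotated gene. A match of letters is no evidence that a factor binds, and these shares were not tested.

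Transamination is carried out by Bcat2, the mitochondrial branched-chain aminotransferase. Its intensity was 886, 764 and 949 in wild-type sham, 415, 799 and 439 in wild-type banded, 1376, 417 and 823 in knockout sham, and 776, 563 and 345 in knockout banded arrays. It was the most variable gene of the 10, its highest array being 3.98 times its lowest, and sham and banded arrays overlapped in both genotypes. The banding difference was -0.70 in wild type (SE 0.38, limma adjusted p = 0.921) and -0.54 in knockout hearts (SE 0.38, limma adjusted p = 0.452). Neither passed, and the 95% intervals ran from -1.52 to 0.13 and from -1.36 to 0.29.

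The dehydrogenase complex is built from Bckdha and Bckdhb, the alpha and beta subunits of its decarboxylase, and Dbt, its acyltransferase core. Bckdhb read 610.3, 688 and 726 in wild-type sham, 485, 570.4 and 643 in wild-type banded, 513, 720.2 and 638 in knockout sham, and 453, 276 and 262 in knockout banded arrays. Each knockout banded array was below each of the other 9. The mean of 330.2 ± 107 in knockout banded hearts was 52.9% of the knockout sham mean of 624 ± 104 (SD, n = 3 each), a fall of 0.91 on the log2 scale (SE 0.19, limma adjusted p = 0.0242). In wild type the banded mean was 83.9% of sham, a difference of -0.25 (SE 0.19, limma adjusted p = 0.979).

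Bckdha read 1473, 1207 and 1108 in wild-type sham, 1056, 1389 and 1240.5 in wild-type banded, 1390.3, 1403 and 1348 in knockout sham, and 1344, 823 and 1111 in knockout banded arrays. The knockout sham arrays were close together and the knockout banded arrays all lay below them, the array labelled knockout banded 1 only just. The difference of -0.36 (SE 0.16) did not pass limma's test (adjusted p = 0.231). Dbt read 533, 667 and 864 in wild-type sham, 662, 902 and 687 in wild-type banded, 877, 864 and 794 in knockout sham, and 934, 461 and 479 in knockout banded arrays. Here knockout banded 2 and 3 were the lowest of all arrays and the array labelled knockout banded 1 was the highest, so the knockout groups overlapped. Dbt had a knockout banding difference of -0.50 (SE 0.24, limma adjusted p = 0.252) and a wild-type one of 0.14 (SE 0.24, limma adjusted p = 0.990).

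Bckdk, the kinase that phosphorylates and inactivates the complex, differed little. Its brighter probe set stayed between 421 and 518 on 11 arrays and was 325 on knockout banded 2. Its banding difference was -0.21 in knockout hearts (SE 0.12, limma adjusted p = 0.355) and 0.01 in wild type (SE 0.12, limma adjusted p = 0.998). A dimmer probe set of Bckdk ran from 30.7 to 104 over the 12 arrays, also lowest on knockout banded 2, with overlapping groups and a knockout banding difference of -0.51 (SE 0.35, limma adjusted p = 0.463).

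The leucine chain runs through Ivd, isovaleryl-CoA dehydrogenase, and then methylcrotonyl-CoA carboxylase, whose biotin-bearing alpha subunit is Mccc1 and whose beta subunit is Mccc2. Mccc2 read 268, 391 and 365 in wild-type sham, 354, 364 and 323 in wild-type banded, 429, 377 and 398 in knockout sham, and 309.6, 179 and 198 in knockout banded arrays. The knockout banded arrays did not overlap with the knockout sham or the wild-type banded arrays, and wild-type sham 1 alone fell within the knockout banded range. The knockout banded mean was 229 ± 70.7 against 401 ± 26.4 in knockout sham (SD, n = 3 each), or 57.0%, a fall of 0.81 on the log2 scale (SE 0.18, limma adjusted p = 0.0316). In wild-type hearts the difference was 0.04 (SE 0.18, limma adjusted p = 0.994).

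The other probe sets of Mccc2 lay lower in knockout banded than in knockout sham arrays too. One read 264, 242 and 219 in knockout sham against 195, 183 and 179 in knockout banded arrays, and the other 112, 119.5 and 113 against 80.0, 82.1 and 75.3. Neither group overlapped with the other in either probe set, and both differences, -0.35 (SE 0.12, limma adjusted p = 0.140) and -0.46 (SE 0.21, limma adjusted p = 0.257), missed the threshold in the fit of all probe sets. Mccc1, the partner subunit, ranged from 1203 to 1465 in knockout sham and from 871 to 1229.6 in knockout banded arrays. Those ranges overlapped, and the difference of -0.32 (SE 0.19) did not pass (limma adjusted p = 0.355). A dimmer Mccc1 probe set, 1458208_s_at, read 136, 185 and 189 in knockout sham and 128, 100.1 and 91.0 in knockout banded arrays. These did not overlap, and the difference of -0.60 (SE 0.20) missed the threshold in the fit of all probe sets (limma adjusted p = 0.132). In wild-type hearts Mccc1 ranged from 814 to 1432 in the banded and from 1013 to 1301 in the sham group, a difference of -0.03 (SE 0.19, limma adjusted p = 0.994).

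Ivd showed the widest split among knockout banded arrays. Its brighter probe set, 1449001_at, read 1709.7, 1688 and 1789 in wild-type sham, 1762, 1704 and 1694 in wild-type banded, 1641, 1576 and 1161 in knockout sham, and 1801, 667 and 874 in knockout banded arrays. Wild-type hearts varied little, knockout banded 2 and 3 were far below every other array, and the array labelled knockout banded 1 was the highest of all 12. The knockout banding difference of -0.50 (SE 0.26) did not pass (limma adjusted p = 0.301). A second Ivd probe set, 1418238_at, read 1649, 1641 and 1442 in knockout sham and 1362, 723 and 855 in knockout banded arrays, which did not overlap. On this probe set the array labelled knockout banded 1 lay below every array of the other groups. In the fit of all probe sets this one fell by 0.73 on the log2 scale (SE 0.17, limma adjusted p = 0.0458). In that fit 3 of the 17 probe sets passed as lower in knockout banding, those of Bckdhb, Mccc2 (1454840_at) and Ivd (1418238_at), against a background of 1.04%.

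On the valine chain, Hibch removes CoA from hydroxyisobutyryl-CoA and Hibadh oxidizes the hydroxyisobutyrate that results. Hibch was level: 1071, 958 and 995 in wild-type sham, 984, 1013 and 936 in wild-type banded, 1120.3, 981 and 978 in knockout sham, and 985, 978 and 1016 in knockout banded arrays. All 4 groups overlapped and the highest array was 1.20 times the lowest. Its knockout banding difference of -0.04 had a 95% interval from -0.23 to 0.14 (limma adjusted p = 0.817). A dimmer Hibch probe set, 1451511_at, read 186, 194 and 157 in knockout sham and 256, 228 and 222 in knockout banded arrays, higher in each of the latter. It was the only one of the 17 probe sets with a knockout banding difference above 0, at 0.37 (SE 0.14, limma adjusted p = 0.171), so the probe sets of Hibch disagreed in sign. Taking the mean of both, Hibch was at 0.16 in knockout banding (SE 0.09, limma adjusted p = 0.341).

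Hibadh read 3484, 3216 and 3469 in wild-type sham, 3298, 3265 and 3352 in wild-type banded, 4007, 3583 and 3304 in knockout sham, and 3313, 2535 and 2751 in knockout banded arrays. Knockout banded 2 and 3 were the lowest of the 12, and the array labelled knockout banded 1 overlapped with the knockout sham group. The difference was -0.34 (SE 0.11, limma adjusted p = 0.102). The other Hibadh probe set differed by -0.31 (SE 0.10, limma adjusted p = 0.115).

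**Figure D2:**
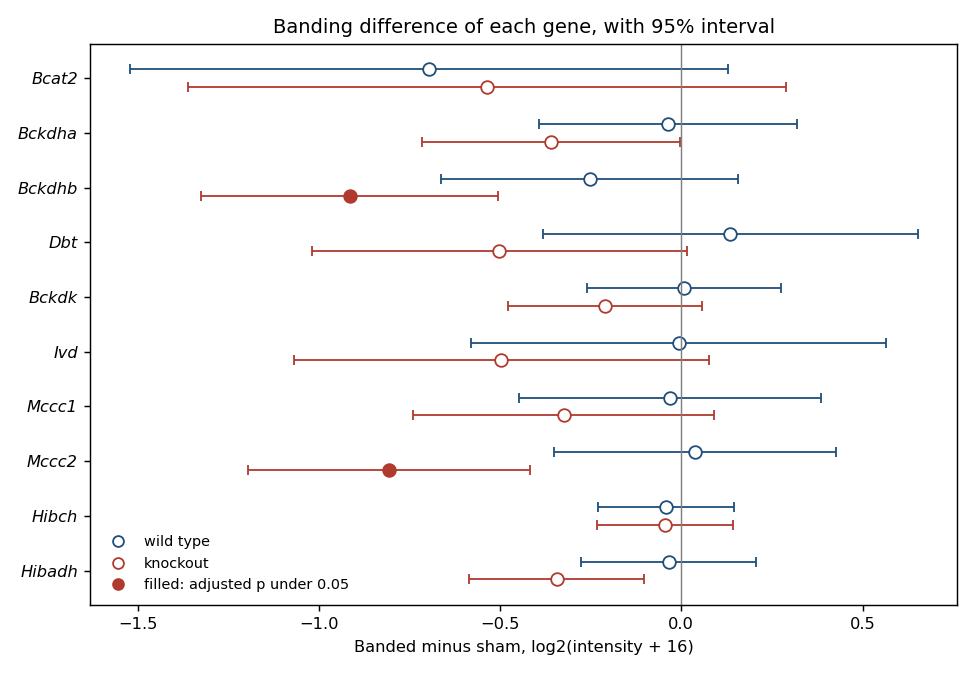
Banded minus sham difference of each gene on the log2(intensity + 16) scale in wild-type (blue) and knockout (red) hearts, with the 95% interval of the limma fit, n = 3 arrays per group; filled points passed at an adjusted p under 0.05. Knockout points lie left of the wild-type points for 9 of the 10 genes, Bcat2 being the exception, and the filled ones are Bckdhb at -0.91 and Mccc2 at -0.81.

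Counted by overlap alone, the knockout banded arrays were all below the knockout sham arrays for 3 of the 10 genes, Bckdha, Bckdhb and Mccc2, where the background was 14.4% of genes tested. Averaged over genotypes, banding gave 0 of 10 genes past the threshold against a background of 1.6%, and 4 of the 10 at an unadjusted p under 0.05, against 1985 of all genes. Bckdhb was closest, at -0.58 (SE 0.13, limma adjusted p = 0.0503).

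The question of how the genotypes differed was asked in sham hearts, in banded hearts, over both and as the interaction. In sham hearts 0 of 10 genes passed limma's test, the background was 0%, and 0 of the 10 genes and 570 of all genes had an unadjusted p under 0.05. Ivd was the only one of the 10 whose knockout sham arrays were all below the wild-type sham arrays, where the background was 5.32%, and its difference was -0.26 (SE 0.26, limma adjusted p = 0.977). This held for its brighter probe set only. On the other, 1418238_at, the sham groups overlapped and the difference was 0.01 (SE 0.17, limma adjusted p = 0.999). The highest value was that of Dbt, at 0.32 (SE 0.24, limma adjusted p = 0.958).

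In banded hearts 0 of 10 genes passed limma's test between genotypes and the background was 0%. At an unadjusted p under 0.05 there were 3 of the 10 (Bckdhb, Ivd and Mccc2) and 1594 of all genes. Bckdhb differed by -0.78 between knockout and wild-type banded hearts (SE 0.19, limma adjusted p = 0.128), Ivd by -0.75 (SE 0.26, limma adjusted p = 0.228) and Mccc2 by -0.60 (SE 0.18, limma adjusted p = 0.179). All knockout banded arrays lay below all wild-type banded arrays for Bckdhb and Mccc2, 2 of the 10, where the background was 8.95%.

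Over both operations together 0 of 10 genes differed between genotypes by limma's test, with a background of 0% and 2 of the 10 and 1158 of all genes at an unadjusted p under 0.05. The interaction, which is the knockout banding difference minus the wild-type one, passed for 0 of 10 genes in limma, again with a background of 0%. Its unadjusted p was under 0.05 for 2 of the 10 and for 994 of all genes. Mccc2 had an interaction of -0.84 (SE 0.25, limma adjusted p = 0.442) and Bckdhb one of -0.66 (SE 0.27, limma adjusted p = 0.522). The falls of Bckdhb and Mccc2 in knockout hearts were thus not shown to differ from the wild-type values.

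The knockout banded arrays were not alike. Knockout banded 2 and 3 were the 2 lowest of all 12 arrays for 5 of the 10 genes, Bckdhb, Dbt, Ivd, Mccc2 and Hibadh, and for 8 of the 17 probe sets, while 10.9% of all genes tested had that order. For 7 of the 10 genes the array labelled knockout banded 1 was within the range of the 9 arrays of the other groups. The share of all genes with that placing was not computed, so this count does not set that array apart. Set against the knockout sham mean, the brighter Ivd probe set was 123% on the array labelled knockout banded 1. It was 45.7% on knockout banded 2 and 59.9% on knockout banded 3. The other Ivd probe set, 1418238_at, was 86.3%, 45.9% and 54.2% in the same order. The Ivd probe sets thus put the array labelled knockout banded 1 on opposite sides of that mean. Dbt was 110.5%, 54.5% and 56.7% in the same order. Bckdhb and Mccc2 were below that mean on all 3: 72.6%, 44.3% and 41.9% for Bckdhb, and 77.1%, 44.6% and 49.2% for Mccc2.

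**Figure D3:**
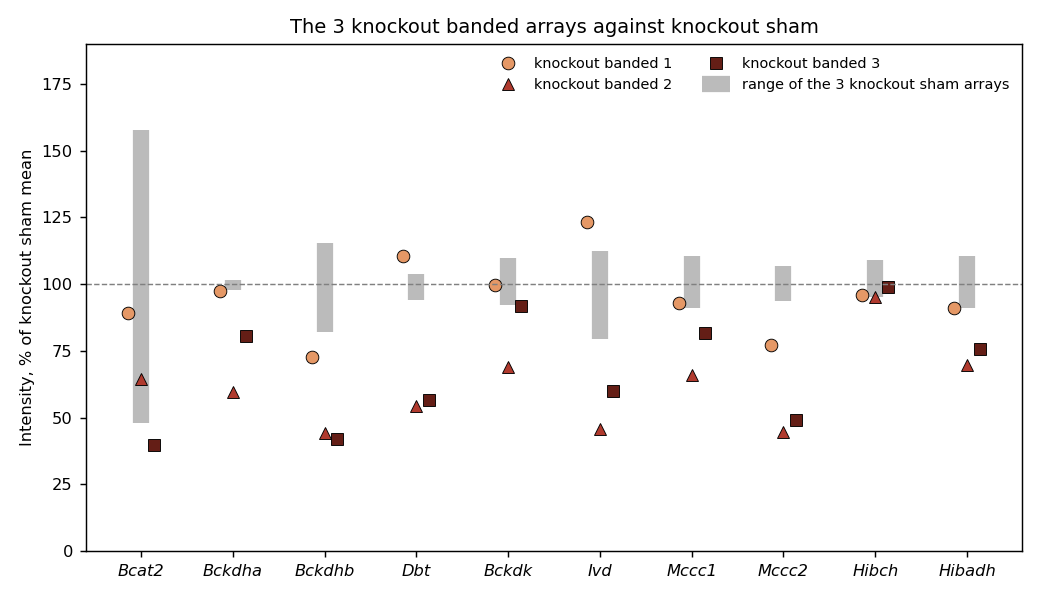
Intensity of each gene on the 3 knockout banded arrays as a percent of the knockout sham mean (dashed line at 100%, axis from 0); grey bars give the range of the 3 knockout sham arrays. The array labelled knockout banded 1 (circles) is above the knockout sham range for Dbt and Ivd and below it for Bckdhb, Mccc2 and, just, Bckdha, whereas knockout banded 2 and 3 are below it for all 5. Each gene is drawn by its brightest probe set, and on the other Ivd probe set that array is below the knockout sham range, at 86.3%.

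Without the array labelled knockout banded 1, 6 of the 10 genes were called lower in knockout banding, against a background of 6.95%, and the median of the 10 moved from -0.43 to -0.66. They were Bckdhb at -1.15 (SE 0.15, limma adjusted p = 0.00056), Mccc2 at -1.03 (SE 0.14, limma adjusted p = 0.00092), Ivd at -0.90 (SE 0.15, limma adjusted p = 0.0024), Dbt at -0.82 (SE 0.18, limma adjusted p = 0.0103), Bckdha at -0.52 (SE 0.16, limma adjusted p = 0.0463) and Hibadh at -0.45 (SE 0.11, limma adjusted p = 0.0176). Hibch stayed at -0.04. Between genotypes in banded hearts, Bckdhb at -1.02, Ivd at -1.15 and Mccc2 at -0.83 were then called lower, 3 of 10 against a background of 2.89%. The same 3 genes passed as an interaction, at -0.90, -0.90 and -1.07, against a background of 0.87%. Averaged over genotypes, banding then gave 3 of the 10 as lower, against 520 of all 10916 genes. Genotype over both operations gave 2 of the 10 as lower, against 61 of all genes.

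The calls with all arrays also rested on single arrays of the knockout groups. Bckdhb lost its call without knockout banded 2 (limma adjusted p = 0.122), knockout banded 3 (0.119), knockout sham 2 (0.0939) or knockout sham 3 (0.0892). Mccc2 lost it without any 1 of the knockout sham arrays or without knockout banded 2 or 3, with limma adjusted p between 0.0841 and 0.148. Leaving out any 1 wild-type array kept both calls, but leaving out all of them, so that only the knockout groups were fitted, ended both (limma adjusted p = 0.0757 for Bckdhb and 0.0748 for Mccc2). Mccc2 also missed the threshold with no filter on dim genes (limma adjusted p = 0.0535) and with the mean of its probe sets (-0.54, limma adjusted p = 0.0596).

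Some other measures moved with the knockout banded group, and their part in these results was not tested. All 7 cardiomyocyte markers (7 of 7) had knockout banding differences below 0, with 1 passing and a median of -0.31, and their summed intensity was 69643 to 76313 in knockout sham and 56676 to 58177 in knockout banded arrays. It did not separate the array labelled knockout banded 1 (58177) from knockout banded 2 and 3 (56742 and 56676). For the 6 fibroblast markers, of which 1 passed as higher, the sums were 6319 to 7723 in knockout sham and 6181, 10392 and 9178 in knockout banded arrays. The log2 ratio of 3' to 5' Actb control signal, a sign of RNA quality, averaged 0.15 ± 0.16 in knockout sham and -0.20 ± 0.02 in knockout banded arrays (SD, n = 3 each), and the Gapdh ratio -0.36 ± 0.03 and -0.33 ± 0.01.

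The rest of the pathway was read from a list of other transport, enzyme and regulator genes, 22 of which were tested. In knockout banding 2 of the 22 passed as lower, against a background of 1.76%, 0 passed as higher and 20 did not pass. Of the 22, 20 were below 0, with a median of -0.32. The pair that fell was Hsd17b10, an isoleucine-chain dehydrogenase, by 0.48 (SE 0.12, limma adjusted p = 0.0434), and Mmut, the methylmalonyl-CoA mutase that ends propionate disposal, by 0.70 (SE 0.16, limma adjusted p = 0.0351). Hsd17b10 read 2052, 1823 and 1710.0 in knockout sham and 1546, 1153 and 1304 in knockout banded arrays, and Mmut 1422, 1642 and 1328 against 1200.2, 782 and 750.0. Neither gene's knockout groups overlapped.

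Ppm1k, the phosphatase that reactivates the dehydrogenase, read 1259, 1671 and 1382 in knockout sham and 1323, 660.3 and 630.2 in knockout banded arrays. As for Dbt and the brighter Ivd probe set, knockout banded 2 and 3 were low and the array labelled knockout banded 1 was not. Its difference of -0.79 (SE 0.23) did not pass (limma adjusted p = 0.0801). Klf15, a transcription factor known to raise expression of these enzymes, differed by -0.87 (SE 0.32, limma adjusted p = 0.144), with 284, 409.96 and 281 in knockout sham against 261, 96.6 and 185 in knockout banded arrays. Dld, the dihydrolipoyl dehydrogenase shared with the pyruvate and oxoglutarate complexes, differed by -0.29 (SE 0.11, limma adjusted p = 0.157), and Slc25a44, the mitochondrial carrier that brings branched-chain amino acids in, by -0.11 (SE 0.14, limma adjusted p = 0.689).

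Only the plasma membrane transporters Slc7a5 and Slc3a2, which pair to import large neutral amino acids, lay above 0 among the 22 in knockout banding. They stood at 0.42 (SE 0.25, limma adjusted p = 0.355) and 0.24 (SE 0.14, limma adjusted p = 0.345). In wild type their means were also higher in banded than in sham arrays, 39.4 against 26.7 for Slc7a5 and 462 against 409 for Slc3a2. The wild-type difference of Slc7a5, 0.45, was the highest of the 22. Slc7a5 was dim, with a mean of 53.1, where array medians over all probe sets were 40.3 to 50.4. Without the array labelled knockout banded 1, 12 of the 22 passed as lower in knockout banding, against a background of 6.95%. Among them were Klf15 at -1.16 (SE 0.32, limma adjusted p = 0.0322) and Ppm1k at -1.13 (SE 0.15, limma adjusted p = 0.00073). In wild-type hearts 0 of the 22 passed, with a median of -0.04.

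**Figure D4:**
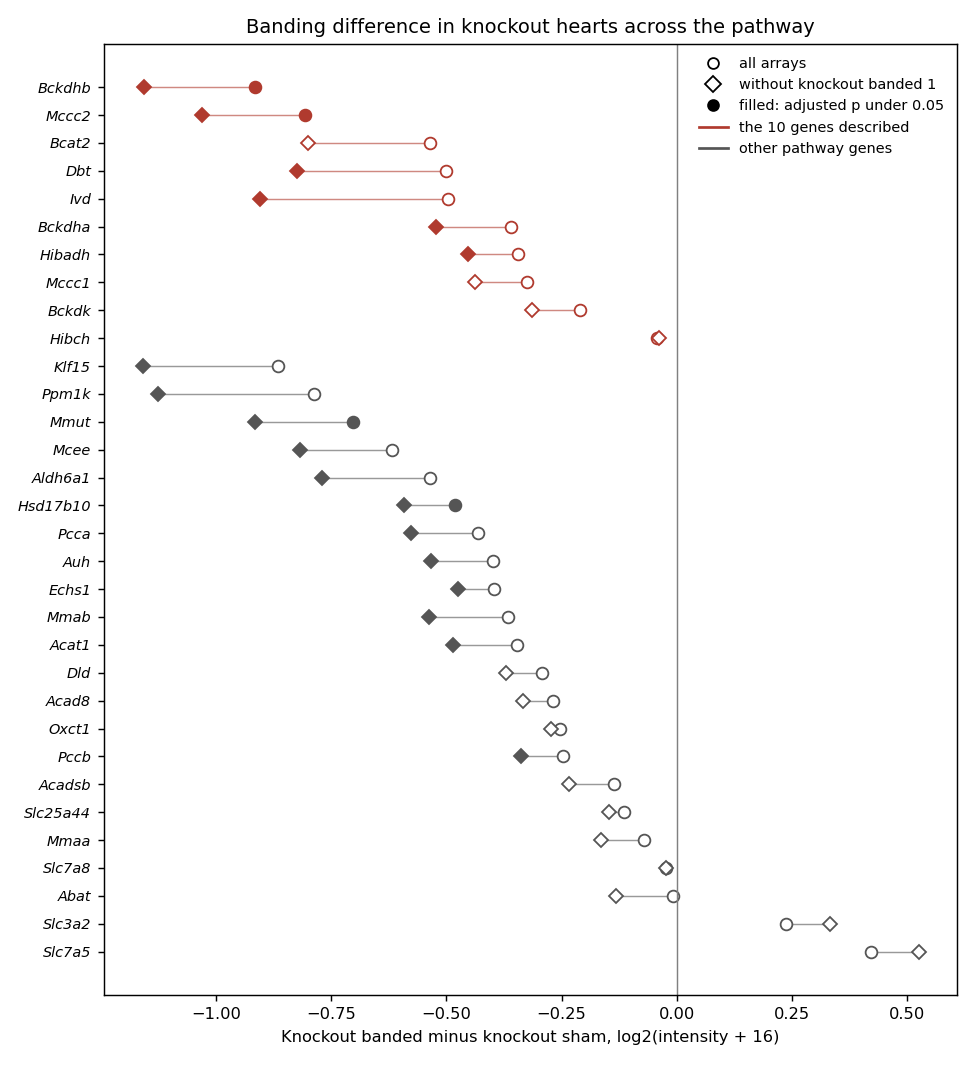
Knockout banded minus knockout sham difference, log2(intensity + 16), of the 10 genes (red) and 22 other pathway genes (grey), with all arrays (circles) and without the array labelled knockout banded 1 (diamonds); filled symbols passed at an adjusted p under 0.05. With all arrays 4 symbols are filled (Bckdhb, Mccc2, Mmut and Hsd17b10), and without that array 18 are.

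Genes of neighbouring mitochondrial pathways also lay mostly below 0 in knockout banding. The 16 fatty acid oxidation genes tested had a median of -0.47 with 16 below 0 and 1 passing. The 12 citrate cycle genes had a median of -0.36 with 12 below 0 and 1 passing. A list of 10 genes held subunits of the pyruvate and oxoglutarate dehydrogenases, the kinases Pdk1, Pdk2 and Pdk4 and the phosphatase Pdp1. It had a median of -0.24 with 8 below 0 and 1 passing as lower. The background was 1.76% of genes called lower. The median of -0.43 for the 10 branched-chain genes lay within the range of these lists. Without the array labelled knockout banded 1, 11 of the 16 fatty acid oxidation genes passed as lower with a median of -0.61, against a background of 6.95%. So did 4 of the 12 citrate cycle genes, with a median of -0.39. In the list of dehydrogenase subunits, kinases and phosphatase 2 of the 10 did, with a median of -0.29. The branched-chain genes then stood at 6 of 10 and -0.66.

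Across the 12 arrays the genes tended to vary together. Of the 45 pairs, 28 had a Pearson correlation above 0.5 in log2 values, with a median of 0.58. The closest were Mccc2 with Hibadh at 0.84, Mccc2 with Bckdhb at 0.83 and Mccc2 with Dbt at 0.83, and the only ones below 0 were Hibch with Mccc1 at -0.20 and Hibch with Bckdhb at -0.12. The points share their arrays, their scaling and the 4 groups, so these values only describe this set.

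Outside the list, the 5 genes most like the mean of the 10 standardized profiles, of 10906 compared over 12 arrays, were Coq2 with a Pearson correlation of 0.97, Etfdh with 0.97, Adhfe1 with 0.96, and Echdc3 and Acaa2 with 0.95 each. In the pathway list Hsd17b10 (0.92), Acat1 (0.91) and Auh (0.91) came closest by Pearson correlation, and Slc3a2 (-0.55) and Slc7a5 (-0.47) ran the other way. By Spearman rank correlation the order changed, with Acat1 at 0.85, Dld, Mmab and Hsd17b10 at 0.78 each, and Auh at 0.64. Slc3a2 stood at -0.62 by rank and Slc7a5 only at -0.20. The mean standardized level of the 10 genes was lowest on knockout banded 2 (-1.77) and knockout banded 3 (-1.06) and highest on knockout sham 1 (0.95), with the array labelled knockout banded 1 at 0.29.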

How the data were processed

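The authors deposited a linear intensity per probe set and array (45101 probe sets, 64 of them controls, left out); the sources used here name neither software nor scaling. Trimmed by 2% at each end, every array had a mean of 150, so no scaling was added. The platform annotation named 1 gene for 34945 probe sets and several for 932, and did not list 9160. Intensities were used as log2(intensity + 16). Each gene took its single-gene probe set with the highest mean log2 value, and the upper 60% of genes were tested. A model of 4 group means was fitted to all 12 arrays with limma 3.58.1 (R 4.3.3) and eBayes with a variance trend, two-sided, with Benjamini-Hochberg adjustment over all genes tested and a threshold of 0.05. The p-values measure the spread between these arrays, and 3 per group limits precision. The procedure was tested on simulated data. All 10 genes are named, with every probe set of each; other pathway genes are named where they passed any comparison or are Klf15, Ppm1k, Dld or Slc25a44, and 5 by likeness. The promoters shown, Slc7a5, Slc3a2, and the pathway genes closest by correlation were singled out after their values were seen. Members and lists were chosen with earlier results of these data known. The replicate numbers were not used as a block, since the labels say only biological replicate. Same-numbered arrays did not deviate together (18 pairs of arrays, median correlation -0.02, range -0.28 to 0.23). Bcat1 was below the filter. Other settings tried were the filter, pseudocount, scaling, trend, weights, choice of probe set, the groups fitted, the replicate block, an atrial score and leaving out arrays.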

Additional observations from a re-analysis of the deposited data

How the results depend on the processing

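Of 1720 values of single genes under the other settings, 15 lost a call, 38 gained one and 0 reversed a called direction. Only the knockout banding calls of Bckdhb and Mccc2 could be lost. Bckdhb passed in 19 of its 25 other settings and Mccc2 in 16 of 25. Among values past the test in neither setting, 90 changed sign, 10 of them by more than their standard error, and the remaining values kept their direction and their side of the threshold. With 3 arrays a group, the number of arrays limits precision. The cause of the shifts below was not tested, apart from those that follow from fewer genes or arrays in the fit.

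For banding in knockout hearts, 416 genes and 2 of the 10 were called. The counts were 212 and 1 without a filter, 1870 and 6 with array weights, and 74 and 0 when only the groups compared were fitted. Averaging each gene's probe sets left 1 of the 10. With the replicate block they were 237 and 0, with Bckdhb at an adjusted p of 0.0518 and Mccc2 at 0.0576 in limma; the replicate block changed no other call of the 10. Without the array labelled knockout banded 1 and wild-type banded 3 together they were 1349 and 5, with a median of -0.66. Leaving out 1 array at a time gave 9 to 1441 genes, 0 to 6 of the 10, and a median from -0.66 to -0.23.

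For banding averaged over genotypes, 175 genes were called, and 77 without a filter, 88 without the trend, 769 with array weights, 60 with the replicate block and 928 without both arrays. Of the 10, 1 was called with the upper 40% of genes, 1 with pseudocount 64, 2 with array weights and 3 without both arrays. Single arrays left out gave 5 to 996 genes and 0 to 3 of the 10.

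For genotype in banded hearts, 581 genes were called with array weights, 1 with the mean of probe sets, 1 with the replicate block, 2 among all probe sets and 354 without both arrays, and 3 of the 10 with array weights and 3 without both arrays. Single arrays left out gave 0 to 667 genes and 0 to 3 of the 10. For genotype over both operations there were 4 genes with the mean of probe sets, 5 among all probe sets and 83 without both arrays, with 2 of the 10 in the last, and 0 to 141 genes and 0 to 2 of the 10 with single arrays left out. For the interaction there were 1 among all probe sets and 96 without both arrays, with 1 of the 10, and 0 to 208 genes and 0 to 3 of the 10 with single arrays left out. For genotype in sham, 1 was called among all probe sets, and 0 to 1 with single arrays left out; for banding in wild type 0 to 3.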
